A study of Mus musculus with 2 samples.

Results

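The T cell receptor variable (V) segments described here are the 49 features whose symbols start with Trav, Trbv, Trgv, Trdv or Tcrg-V and that held 20 or more UMIs (counted RNA molecules) over both libraries, out of 176 annotated V segments and 32285 features in all. The members were thus chosen by their summed UMIs, and their abundance is a description. They were 30 Trav (alpha chain), 3 Trdv (delta), 13 Trbv (beta) and 3 gamma chain segments. The libraries came from CD45+ cells sorted from spleens of wild-type (WT) mice, profiled with a 10x Genomics 3' v3.1 single-cell kit. All mice were injected intraperitoneally with 10000 iRBCs, an abbreviation the labels do not spell out, and received Vehicle or Glutoborin on days 2 and 4 before collection on day 5. There was 1 Vehicle library and 1 Glutoborin library, so no difference between them has a replicate check and no p-value is given. The labels give no strain, age or number of mice per library.

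A T cell receptor is a pair of chains, alpha with beta or gamma with delta, and each chain gene is assembled during development by joining 1 V segment to shorter downstream segments and a constant gene. The V segment chosen therefore marks a cell and its descendants, and it supplies the part of the receptor that touches the presenting MHC molecule, MHC class II for CD4 T cells and MHC class I for CD8 T cells. Alpha and delta V segments lie in the same locus, and several can join to either chain (names ending in dv). A few lineages use a fixed V segment, such as Trav11 in invariant NKT cells and Trav1 in MAIT cells. A 3' kit reads the end of a transcript that holds the constant gene, far from the V segment, so V segment UMIs are sparse.

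T barcodes were those with 2 or more UMIs of Cd3e, Cd3d and Cd3g together and at most 2 of the B cell gene Cd79a, after removal of low-quality barcodes and predicted doublets. The Vehicle library held 2050 of them and the Glutoborin library 2728. Within these, Cd4-only barcodes (Cd4 present, Cd8b1 and Trdc at 0) numbered 577 and 663, Cd8b1-only barcodes 841 and 1141, and Trdc barcodes (1 or more UMIs of the delta constant gene) 79 and 124, in the order Vehicle and Glutoborin used throughout. The alpha constant gene Trac was found in 92.2% and 92.3% of T barcodes and the beta constant gene Trbc2 in 98.7% and 98.4%, as the T cell label requires. The Trdc barcodes did not all carry the features of gamma-delta T cells: Trac was found in 60.8% and 58.9% of them, a gamma constant gene in 38.0% and 54.0%, and the NK cell gene Ncr1 in 16.5% and 13.7%. Of those with 2 or more Trdc UMIs, 73.0% and 80.8% held a gamma constant gene. They are therefore called Trdc barcodes and given no cell type name.

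The sequences below are shown because the results turn on telling near-identical copies apart. The mouse alpha locus holds a large internal duplication, whose copies carry a d or an n in their names. The last 120 bases of the V exon of the 3 copies of Trav16, read 5′ to 3′ from the GENCODE M21 transcripts (GRCm38, the same assembly as mm10), differ at 4 positions, set in capitals. All lie on the plus strand of chromosome 14, Trav16 at chr14:53743104-53743705, Trav16n at chr14:53351028-53351621 and Trav16d-dv11 at chr14:53047287-53047821, and each is annotated as a V gene.
Trav16: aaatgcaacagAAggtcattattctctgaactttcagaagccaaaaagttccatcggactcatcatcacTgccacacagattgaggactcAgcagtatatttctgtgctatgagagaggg
Trav16n: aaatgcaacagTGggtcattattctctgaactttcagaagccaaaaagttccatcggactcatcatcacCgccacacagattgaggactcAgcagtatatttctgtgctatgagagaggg
Trav16d-dv11: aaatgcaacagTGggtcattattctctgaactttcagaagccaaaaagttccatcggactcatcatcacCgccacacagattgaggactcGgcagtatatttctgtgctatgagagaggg
Over the length of the shorter transcript of each pair, Trav16 and Trav16n were 98.54% identical, and Trav16d-dv11 was 97.45% identical to Trav16n. Because the copies are so close, UMIs could be split between them by the authors' mapping, and family sums are given beside single segments.

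The ends of the other V exons that the results turn on are given below as their last 60 bases, with the codon of the conserved cysteine in capitals. The stretch after that codon begins the third complementarity-determining region, the most variable loop of the chain. Trbv12-2 (chr6:41118851-41119364, plus strand) and Trbv2 (chr6:41047340-41047995, plus strand) were the leading beta segments, and Trav14d-3-dv8 (chr14:53078452-53079045, plus strand) the leading alpha segment. Trav11 (chr14:53519303-53519859, plus strand) is the invariant NKT segment. Trgv2 (chr13:19336573-19337167, minus strand), Tcrg-V1 (chr13:19339989-19340454, plus strand) and Tcrg-V4 (chr13:19184974-19185506, plus strand) are the gamma segments, and Trdv2-2 (chr14:53960944-53961602) and Trdv4 (chr14:54074905-54075515), both on the plus strand, are delta segments.
Trbv12-2: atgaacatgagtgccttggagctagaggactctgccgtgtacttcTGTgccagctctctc
Trbv2: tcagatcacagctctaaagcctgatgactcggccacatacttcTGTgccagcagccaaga
Trav14d-3-dv8: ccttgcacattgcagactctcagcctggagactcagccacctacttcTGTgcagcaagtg
Trav11: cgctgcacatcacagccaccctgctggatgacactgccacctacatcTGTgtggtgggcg
Trgv2: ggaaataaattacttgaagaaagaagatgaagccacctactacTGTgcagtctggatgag
Tcrg-V1: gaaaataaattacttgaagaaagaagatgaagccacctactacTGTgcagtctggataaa
Tcrg-V4: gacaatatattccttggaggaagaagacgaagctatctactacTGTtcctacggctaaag
Trdv2-2: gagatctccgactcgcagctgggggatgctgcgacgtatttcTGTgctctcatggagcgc
Trdv4: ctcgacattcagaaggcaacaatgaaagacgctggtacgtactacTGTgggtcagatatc
Trgv2 and Tcrg-V1 were 94.65% identical over the length of the shorter transcript. By the same measure Tcrg-V4 was 66.2% identical to Trgv2 and 68.98% to Tcrg-V1.

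The 176 V segments together held 2723 UMIs, of which the 49 members held 2282 (83.8%). The members ranged from 21 UMIs in Trav10n, Trav6-5 and Trav17, just inside the limit, to 199 in Trgv2, and Trbv29 and Trbv31 lay just outside it at 17. Of the UMIs in retained barcodes, 93.3% lay in T barcodes and 0.825% in B cell barcodes (Cd79a 3 or more, no Cd3 UMI). In T barcodes, a UMI of an alpha or delta segment was found in 20.7% (95% exact binomial interval 18.995 to 22.6) and 17.5% (16.1 to 19.002), and of a beta segment in 12.8% (11.4 to 14.4) and 10.8% (9.64 to 12.001). The same shares in B cell barcodes were 0.233% and 0.0857% for alpha or delta and 0.167% and 0.0429% for beta, at median depths of 4744.5 and 4084 UMIs against 6621.5 and 5733 in T barcodes. With every barcode thinned to 2000 UMIs the T barcode shares were 8.42% and 7.68% for alpha or delta and 4.14% and 3.95% for beta. The intervals here and below cover counting error only.

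Each T barcode was assigned, per chain, to the V segment with most UMIs, and barcodes with a tie were left out. Alpha or delta segments were assigned in 404 and 458 T barcodes, beta segments in 254 and 285 and gamma segments in 48 and 74. More than 1 alpha or delta segment was found in 8.71% and 7.74% of the T barcodes that had any, and more than 1 beta segment in 4.56% and 3.74%. All shares below are of barcodes assigned for that chain, with every annotated segment counted in the total.

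Many segments with no UMI could not be told from their relatives by sequence. For each segment, the share of its 60-base stretches found in no other annotated V segment was computed from the transcripts. The median was 82.0% among the members and 74.6% among the 61 segments with 1 to 19 UMIs, all of which had some unique stretch. Among the 66 segments with no UMI it was 0, and 34 of the 40 annotated genes among those 66 had no unique 60-base stretch at all. The other 26 were annotated pseudogenes. By copy of the alpha locus, the 55 segments without a d or n held 1187 UMIs (73.1% of Trav UMIs), the 39 d copies 223 (13.7%) and the 34 n copies 213 (13.1%), and the median unique share of the annotated genes in these 3 sets was 70.0%, 0.180% and 0. For the 38 segments at 0 UMIs that had no unique stretch, pseudogenes included, a count of 0 does not show that the cells did not use them. The other 28 at 0 UMIs, 6 of them annotated genes, had some unique sequence. Trav11 was the only member with no unique stretch, being 100% identical to Trav11d, which was listed at 0 UMIs in both libraries. The beta members all had 100% unique stretches.

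**Figure D1:**
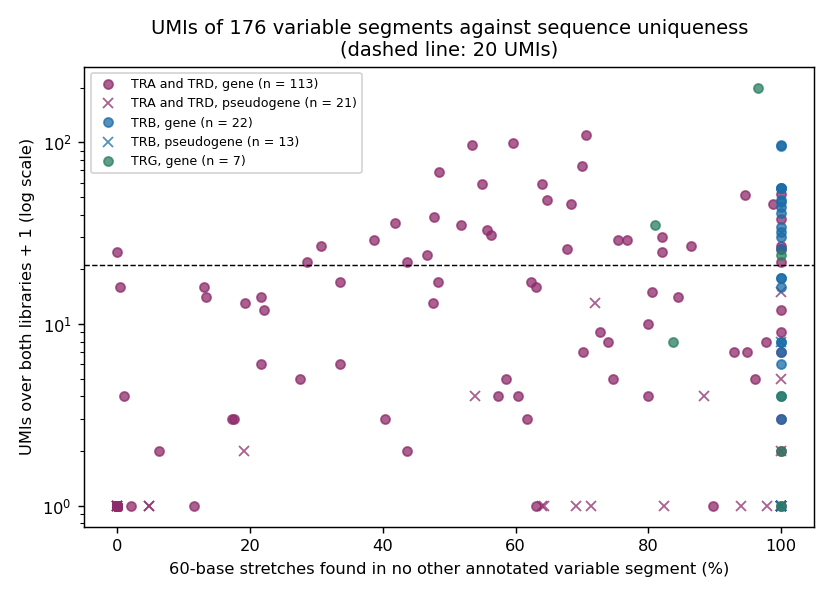
UMIs over both libraries plus 1 (vertical, log scale) of each annotated V segment against the percentage of its 60-base stretches found in no other V segment (horizontal); circles are genes and crosses pseudogenes. Many segments at 0 on the horizontal axis lie at the bottom, where the count is 0 UMIs, and Trgv2, at 199 UMIs, is the highest point.

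Among the beta segments, Trbv12-2 and Trbv2 were assigned to the most T barcodes. Trbv12-2 was found in 30 of 254 (11.8%) and 37 of 285 (13.0%) and Trbv2 in 30 (11.8%) and 32 (11.2%). The other 11 beta members ranged from 7 barcodes (Trbv26, Vehicle) to 26 (Trbv3, Glutoborin). Use was spread over many segments: the effective number of beta segments (the exponent of the Shannon entropy of the shares) was 16.1 in the Vehicle and 16.8 in the Glutoborin library. For the alpha and delta segments it was 49.0 and 47.2.

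In Cd4-only barcodes the 5 leading beta segments by mean share over the libraries were Trbv2, Trbv12-2, Trbv19, Trbv3 and Trbv13-2. Trbv2 held 8 of 68 assigned barcodes (11.8%, 5.22 to 21.9) and 9 of 79 (11.4%, 5.34 to 20.5). In Cd8b1-only barcodes they were Trbv12-2, Trbv2, Trbv3, Trbv13-1 and Trbv19, with Trbv12-2 at 17 of 127 (13.4%) and 15 of 114 (13.2%, 7.57 to 20.8). In Cd4-only barcodes Trbv12-2 held 5 (7.35%) and 10 (12.7%), and its intervals in the 2 classes overlapped in both libraries. Neighbours in these orders had overlapping intervals.

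**Figure D2:**
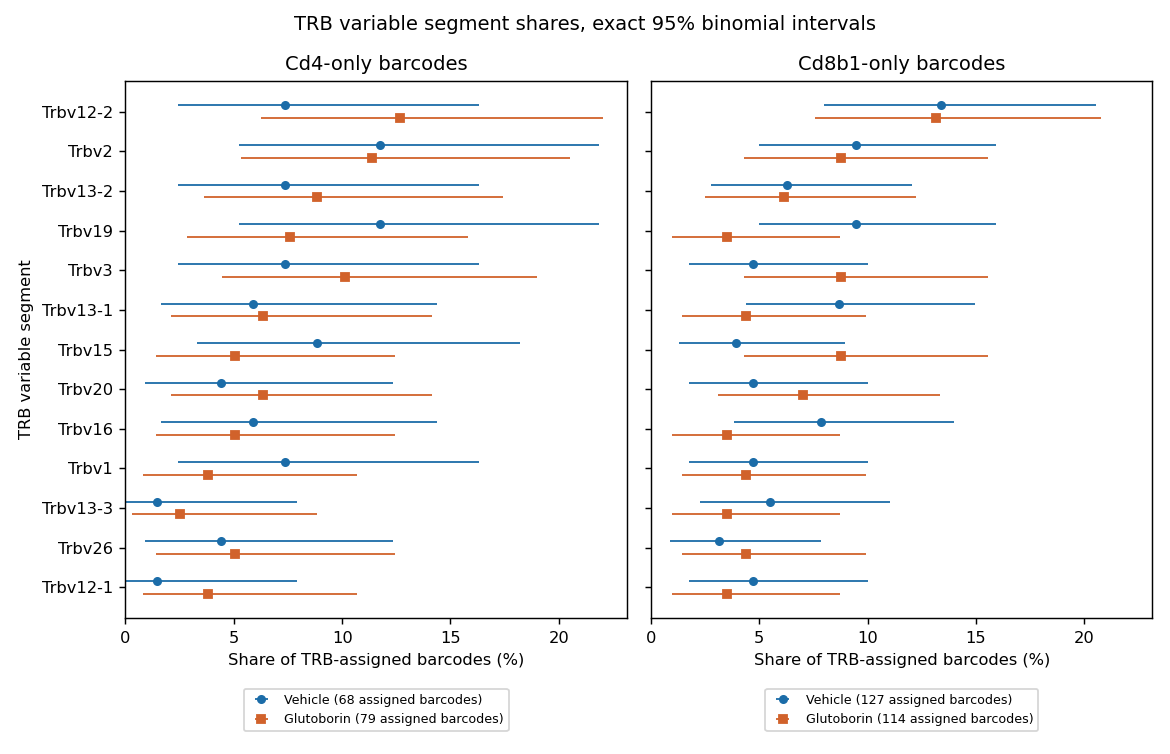
Share of barcodes assigned to each of the 13 beta members (percent of barcodes assigned a beta segment) in Cd4-only (left) and Cd8b1-only (right) barcodes; blue circles are the Vehicle and orange squares the Glutoborin library, and lines are exact 95% binomial intervals. The intervals of the 2 libraries overlap for every segment in both classes.

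Trbv26, Trbv12-1, Trbv12-2 and Trbv16 are segments that endogenous retroviral superantigens delete from the T cells of some mouse strains. All 4 were present in T barcodes of both libraries: Trbv26 in 7 and 13, Trbv12-1 in 8 and 10, and Trbv16 in 15 and 15, beside the Trbv12-2 values above. Each was also found in both classes. Trbv26 held 3 of 68 and 4 of 79 assigned Cd4-only barcodes and 4 of 127 and 5 of 114 Cd8b1-only barcodes, and Trbv16 held 4 and 4 Cd4-only and 10 and 4 Cd8b1-only barcodes.

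Among alpha segments, the 5 leading in Cd4-only barcodes were Trav14d-3-dv8, Trav6-7-dv9, Trav4-4-dv10, Trav14-2 and Trav3-3. Trav14d-3-dv8 held 7 of 115 assigned barcodes (6.09%) and 8 of 113 (7.08%). In Cd8b1-only barcodes the 5 leading segments were Trav16, Trav16n, Trav14d-3-dv8, Trav6-7-dv9 and Trav3-3. Trav16 there held 15 of 177 (8.47%, 4.82 to 13.6) and 16 of 196 (8.16%, 4.74 to 12.9), and Trav16n 11 (6.21%) and 17 (8.67%). By family, Trav14 led in all T barcodes with 67 of 408 (16.4%) and 91 of 459 (19.8%), and Trav16 followed with 54 (13.2%) and 54 (11.8%); this family comparison, like those below, was made after the segment values were seen.

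The Trav16 family was used less in Cd4-only than in Cd8b1-only barcodes of both libraries. In the Vehicle library 9 of 116 Cd4-only barcodes (7.76%) and 35 of 178 Cd8b1-only barcodes (19.7%) were assigned to it, a log2 ratio of -1.34 (95% exact interval -2.58 to -0.26). In the Glutoborin library they were 8 of 114 (7.02%) and 40 of 196 (20.4%), a log2 ratio of -1.54 (-2.85 to -0.43). With both libraries summed the log2 ratio was -1.44 (-2.29 to -0.67), 17 Cd4-only against 75 Cd8b1-only barcodes. Each copy lay on the same side in both libraries: Trav16 had 3 Cd4-only and 15 Cd8b1-only barcodes in the Vehicle library and 4 and 16 in the Glutoborin library, Trav16n 5 and 11, then 1 and 17, and Trav16d-dv11 1 and 9, then 3 and 7. These splits between copies depend on how the reads were mapped to the sequences printed above, and the family sum does not depend on the split. The part in the family sum of reads that fit more than 1 copy was not tested.

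**Figure D3:**
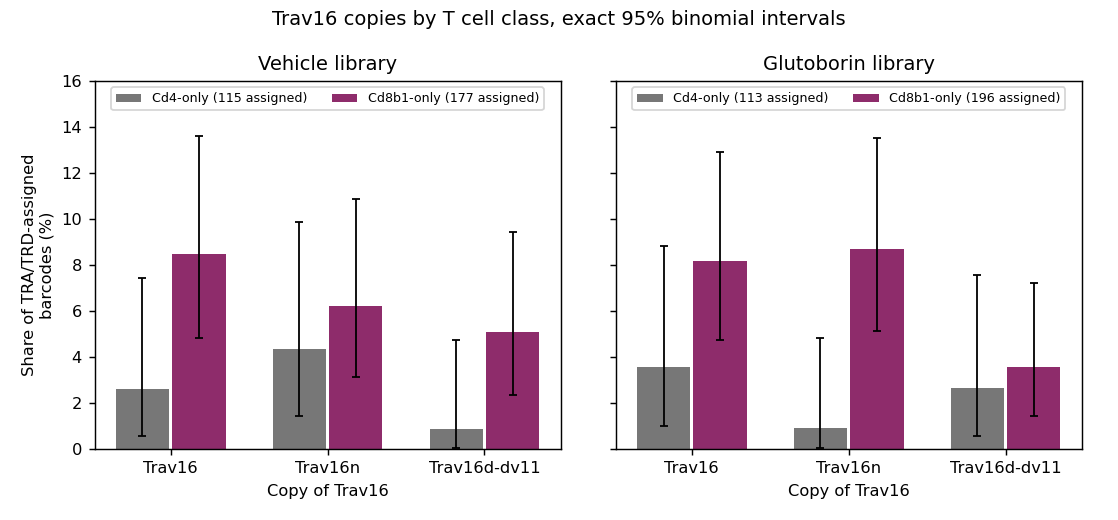
Share of barcodes assigned to each Trav16 copy (percent of barcodes assigned an alpha or delta segment) in Cd4-only (grey) and Cd8b1-only (purple) barcodes of the Vehicle (left) and Glutoborin (right) libraries; bars are shares of 1 library and lines exact 95% binomial intervals. The purple bar is the taller of each pair, and single-copy intervals overlap in most pairs.

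Within the Cd8b1-only class the Trav16 share was close to even between cells with and without Ccl5, a chemokine gene of memory and effector CD8 T cells. It was 6 of 34 barcodes (17.6%) with 2 or more Ccl5 UMIs and 22 of 111 (19.8%) with none in the Vehicle library, and 11 of 57 (19.3%) and 26 of 117 (22.2%) in the Glutoborin library. Among Cd4-only barcodes without the regulatory T cell gene Foxp3 it was 9 of 109 (8.26%) and 6 of 108 (5.56%). Among those with Foxp3 it was none of 7 assigned barcodes in the Vehicle library and 2 of 6 (33.3%) in the Glutoborin library, too few to compare. With Foxp3 and Ccl5 barcodes left out, the log2 ratio of Cd4-only to Cd8b1-only was -1.26 (-2.57 to -0.09) and -2 (-3.57 to -0.69). Where assignment needed 2 UMIs it was -0.89 (-2.71 to 0.67) and -0.56 (-3.08 to 1.45), with both intervals across 0. The median depth was 6038 and 5092 UMIs in Cd4-only and 7557 and 6750 in Cd8b1-only barcodes; the part of depth in the ratio was not tested.

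Of 32 segments with 10 or more assigned barcodes over both classes and libraries, 1 (Trav4-4-dv10) was past 1.5-fold higher and 2 (Trav16 and Trav12-2) past 1.5-fold lower in Cd4-only barcodes in both libraries, and in none were both intervals off 0 on the log2 scale. Measured by the share of barcodes with any UMI, so that all features could be treated alike, 5 of 36 members were past 1.5-fold the same way in both libraries, against 11.7% of all 12321 features tested and 24.7% of features found in as few barcodes as the members. The members' share was thus slightly above that of all features and below that of features found in as few barcodes. With both intervals also off 0, the background was 4.96% of all features and 2.00% in the members' range, and no member met it. Of 25 families measured, Trav4 was higher and Trav16 and Trbv14 lower past 1.5-fold in both, and Trav16 was the family with both intervals off 0. No share over all features was computed at the level of families. These family counts were few, and near the 11.7% and 4.96% of all single features given above.

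Trav4 lay on the other side: 7 of 116 Cd4-only and 4 of 178 Cd8b1-only barcodes in the Vehicle library, and 8 of 114 and 4 of 196 in the Glutoborin library. Summed, the log2 ratio was 1.61 (0.28 to 3.05), most of it from Trav4-4-dv10, with 6 Cd4-only and 3 Cd8b1-only barcodes and then 5 and 2. Trbv14, which is no member, held 1 Cd4-only and 3 Cd8b1-only barcodes and then 0 and 7. Trav14 was nearly even, with log2 ratios of 0.37 and 0.35. Trav3 went apart between the libraries, at 1 and 12 barcodes in the Vehicle and 8 and 12 in the Glutoborin library.

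**Figure D4:**
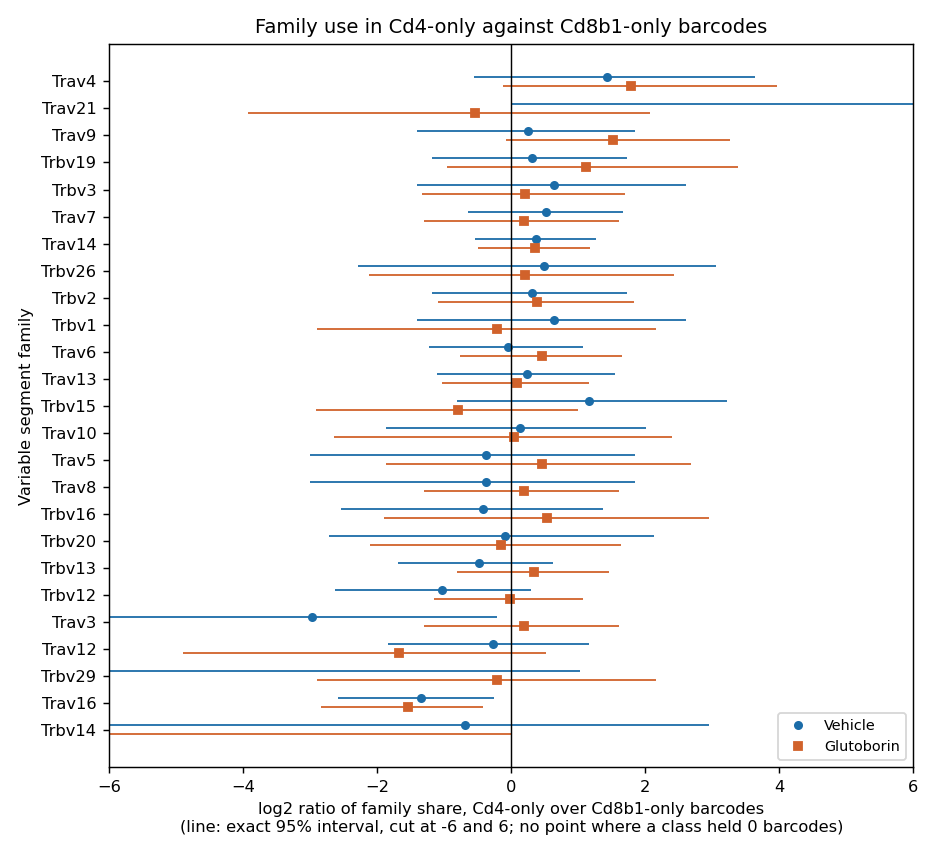
Log2 ratio of the share of each V segment family in Cd4-only over Cd8b1-only barcodes (horizontal), for families with 10 or more assigned barcodes; blue circles are the Vehicle and orange squares the Glutoborin library, lines are exact 95% intervals, and a point is missing where a class held 0 barcodes. Trav16, at -1.34 and -1.54, is the family whose 2 lines both stop short of 0, and Trav4 is the highest.

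Few members differed between the libraries beyond counting error. Of 45 members with 10 or more assigned T barcodes, 8 were past 1.5-fold higher and 9 past 1.5-fold lower in the Glutoborin library, and 1 had an interval off 0. By the share of barcodes with a UMI, 17 of 46 members were past 1.5-fold, 3 higher and 14 lower in the Glutoborin library, against 13.1% of all 12945 features and 37.5% of features in the members' range of 10 to 100 barcodes. In Cd4-only barcodes 3 of 11 measured members were higher and 2 lower (by share of barcodes, 6 of 16, 4 higher and 2 lower, against 14.2% of all features and 45.5% in range), and in Cd8b1-only barcodes 4 of 23 were higher and 5 lower (12 of 24, 2 higher and 10 lower, against 14.5% and 47.4%). In Trdc barcodes 0 of the 2 measured members were past it, against 20.9% and 36%. Median depth in T, Cd4-only and Cd8b1-only barcodes was lower in the Glutoborin library, and its part in the share of barcodes with a UMI was not tested. The median log2 ratio of that share in T barcodes was -0.19 over all features and -0.15 over the members tested. In Cd8b1-only barcodes it was -0.18 over all features, -0.30 over those in range and -0.44 over the members tested. In Cd4-only barcodes it was -0.17 over all features and 0.04 over the members tested, and in Trdc barcodes -0.07 and 0.25. In T and Cd8b1-only barcodes the members past 1.5-fold were split nearly evenly by assigned share and were mostly lower by share of barcodes. In Cd4-only barcodes more were higher than lower by both measures. In T, Cd4-only and Cd8b1-only barcodes the members' shares past 1.5-fold lay near the background of equally sparse features. With the interval also off 0, the members numbered 3 of 46 in T barcodes (background 5.38% of all features and 8.9% in range), 0 of 16 in Cd4-only (4.79% and 2.47%), 1 of 24 in Cd8b1-only (6.27% and 9.35%) and 0 of 2 in Trdc barcodes (2.13% and 2.73%).

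The member with an interval off 0 was Trav12-3, in 10 of 404 Vehicle and 2 of 458 Glutoborin T barcodes, a log2 ratio of -2.50 (-5.73 to -0.27). In the Cd4-only class it held 6 and 0 barcodes and in the Cd8b1-only class 4 and 1. Among families, Trav15, whose segments can join to alpha or delta and of which none is a member, was found in 1 of 408 and 11 of 459 T barcodes. The leading segments were closer: Trav14d-3-dv8 held 26 (6.44%) and 40 (8.73%) T barcodes and Trav16n 17 (4.21%) and 21 (4.59%). Trav12-3 and Trav15 were picked out after their values were seen.

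Beside the library comparison, markers of other cells in these classes differed between libraries. The summed level of 5 B cell genes, all detected, was 689 and 361 CPM (UMIs per 1000000 UMIs of the class) in Cd4-only and 589 and 313 in Cd8b1-only barcodes, that of 4 monocyte genes, all detected, 834 and 634 and then 1402 and 1044, and that of 3 neutrophil genes, all detected, 42.1 and 235 and then 33.4 and 216. Their part in the V segment ratios was not tested.

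Trgv2 was the most abundant V segment of any chain, and most of its cells did not carry Trdc. It held 37 of the 48 T barcodes assigned a gamma segment (77.1%, 62.7 to 88.0) in the Vehicle library and 52 of 74 (70.3%, 58.5 to 80.3) in the Glutoborin library. Tcrg-V1 held 6 and 13 and Tcrg-V4 held 4 and 5. Of the Trgv2 barcodes, 9 of 37 and 22 of 52 held a Trdc UMI, 32 and 37 held the alpha constant gene Trac, and 22 and 37 held neither Cd4 nor Cd8b1. Trgv2 was also the leading gamma segment within Trdc barcodes, with 9 of 13 assigned and 22 of 33, while Tcrg-V1 had 3 and 7 and Tcrg-V4 had 0 and 3.

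As background, a gamma V segment joins by preference to the constant gene of its own cluster in the locus. Tcrg-C2, the constant gene of the Trgv2 cluster, was found in 35 of 37 and 48 of 52 Trgv2 barcodes, against 2.25% and 1.81% of T barcodes with no gamma V segment. Tcrg-C4 was found in 5 of 6 and 11 of 13 Tcrg-V1 barcodes, and Tcrg-C2 in 3 and 10 of them. The few Tcrg-V4 barcodes showed no preference: Tcrg-C1 was found in 2 of 4 and 3 of 5, Tcrg-C2 in 2 and 4, and Tcrg-C4 in 2 and 3. Tcrg-C1, a close relative of Tcrg-C2, was also found in 20 and 23 of the Trgv2 barcodes, and its UMIs (78 and 93) and those of Tcrg-C4 (94 and 49) were fewer than those of Tcrg-C2 (199 and 175).

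The Trgv2 barcodes had the genes of an activated or innate-like state. Il2rb, a chain of the interleukin-2 and interleukin-15 receptor, was found in 34 of 37 (91.9%) and 47 of 52 (90.4%), against 34.7% and 32.3% of T barcodes with no gamma V segment. Ccl5 was found in 32 (86.5%) and 41 (78.8%), against 29.0% and 31.5%. The Trgv2 barcodes had a higher median depth (10471 and 7501.5 UMIs, against 6564 and 5703), and the part of depth in these shares was not tested.

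The delta segments fell in different cells. Trdv1 was found in 9 and 4 retained barcodes, all of them T barcodes. Trdv2-2 was found in 13 and 14, of which 10 and 6 were T barcodes. Trdv4 was found in 11 and 13 retained barcodes, of which 1 and 1 were T barcodes: 8 and 7 of them held no Cd3 UMI, 9 and 13 held the NK cell gene Ncr1, and 9 and 13 held the NK receptor gene Klrb1c.

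In NK barcodes, taken as those with an Ncr1 UMI and no Cd3 UMI (a gate chosen after the delta values were seen), Trdv4 was found in 7 of 215 (3.26%, 1.32 to 6.59) and 7 of 303 (2.31%, 0.934 to 4.70). In B cell barcodes it was found in 0 of 3002 and 0 of 4665, which allows shares of up to 0.0999% and 0.0643%, at median depths of 4744.5 and 4084 UMIs against 7940 and 6284 in NK barcodes. Trdv2-2 was found in 2 and 6 NK barcodes. The delta constant gene Trdc was found in 26.05% and 35.3% of NK barcodes, against 0.400% and 0.343% of B cell barcodes. The 49 members held 29 UMIs in NK barcodes, of which Trdv4 had 19 and Trdv2-2 had 8, so delta segments made up nearly all of them. Trgv2 was found in no NK barcode, which allows shares of up to 1.40% and 0.990%.

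Trdv4, Trdv2-2 and Tcrg-V4 each overlap an annotated antisense gene, and no label or file header says if reads were counted by strand. The partner of Trdv4, Gm30275, had 0 UMIs in NK, T and B cell barcodes of both libraries. The partner of Trdv2-2, Gm43647, was found in 15 of 215 and 17 of 303 NK barcodes and in 6 and 14 T barcodes, so the Trdv2-2 values in NK barcodes cannot be told apart from it without strand. No member overlapped another annotated gene on its own strand.

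**Figure D5:**
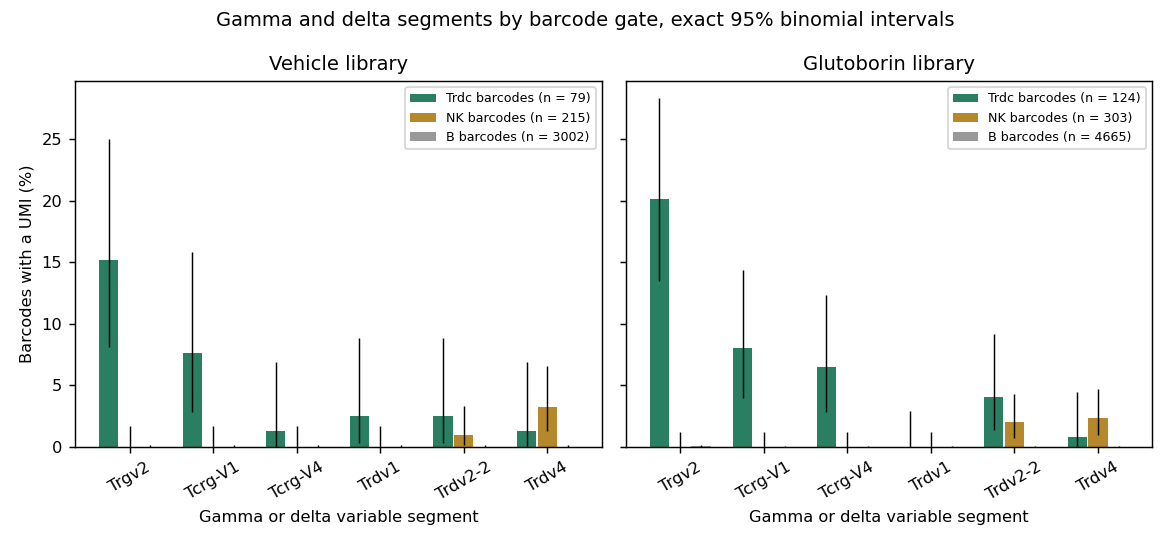
Share of barcodes with a UMI (vertical, percent) of each gamma and delta member in Trdc (green), NK (yellow) and B cell (grey) barcodes of the Vehicle (left) and Glutoborin (right) libraries; lines are exact 95% binomial intervals. Trgv2 is highest in Trdc barcodes and at 0 in NK barcodes, and Trdv4 is found in 3.26% and 2.31% of NK barcodes.

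Within Trdc barcodes, a delta-capable V segment (Trdv, or a Trav with dv in its name) was assigned in 8 and 12. Trdv2-2 led with 2 and 4, followed by Trav13-4-dv7 with 1 and 2. Trdv1 had 2 and 0, Trdv4 had 1 and 1, and Trav21-dv12 had 1 and 1. At these counts no order among them could be told from counting error.

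Trav11 was assigned in 8 T barcodes of the Vehicle and 6 of the Glutoborin library, and these had the genes of invariant NKT cells. Zbtb16, which encodes PLZF, the regulator that defines these cells, was found in 6 of 8 and 3 of 6, against 7 of 395 and 2 of 449 barcodes with another alpha or delta segment. Il2rb was found in 8 and 6, Cxcr3 in 7 and 6, Cd44 in 8 and 5, and Tbx21, the regulator of the interferon-gamma producing subset, in 6 and 3. The naive T cell genes Tcf7 and Ccr7 were found in 1 and 0 Trav11 barcodes each, against 311 and 347, and 279 and 284, of the other assigned barcodes.

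By summed level, the 9 genes of the invariant NKT list reached 1624 and 1776 CPM in the Trav11 barcodes, against 610 and 612 CPM in the other assigned barcodes. The 5 genes of the naive T list reached 149 and 65.0 CPM, against 1423 and 1494. Cd4 was found in 3 and 1 of the Trav11 barcodes, Cd8b1 in 1 and 1 and Cd8a in none. A beta segment was read in 1 Trav11 barcode of each library, Trbv19 and Trbv17. Between the libraries the Trav11 share had a log2 ratio of -0.60, with an interval of -2.40 to 1.12. Trav1, the segment of MAIT cells, had too few UMIs to be a member. It was found in 1 and 3 T barcodes, all with Cd8b1 and none with Zbtb16.

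Alpha and beta segments were both assigned in 58 T barcodes of each library, which gave 58 and 57 distinct pairs. The single repeated pair was Trav16d-dv11 with Trbv12-2, in 2 Cd8b1-only barcodes of the Glutoborin library. Joining segments were not readable: the 60 annotated Traj features held 1 UMI and the 14 Trbj features none, so a shared pair does not show that cells belong to 1 clone.

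Of the 35 other genes fixed as a T cell receptor pathway list (constant chains, CD3 chains, coreceptors, proximal kinases and adaptors, and recombination genes), 31 were measured in each of the Cd4-only and Cd8b1-only classes and 32 in Trdc barcodes. None was past 1.5-fold higher in the Glutoborin library, and 3, 3 and 1 were past it lower, against 10.9%, 11.7% and 19.5% of all features with 20 or more UMIs in those classes. The 3 genes were the gamma constant genes in both of the first classes, where the count lay near the share of all features. Tcrg-C2 had 50 and 24 UMIs (12.7 and 6.23 CPM) in Cd4-only barcodes, a log2 ratio of -1.03 (-1.79 to -0.30), and 44 and 17 UMIs (5.90 and 1.95 CPM) in Cd8b1-only barcodes, -1.59 (-2.49 to -0.76). Those UMIs came from 10 of 577 (1.73%) and 12 of 663 (1.81%) Cd4-only barcodes. In the Cd8b1-only class they came from 10 of 841 (1.19%) and 11 of 1141 (0.964%). By share of barcodes the libraries were thus close for Tcrg-C2. The intervals treat UMIs as independent, which UMIs of 1 barcode are not, so they understate the spread. Tcrg-C1 and Tcrg-C4 had log2 ratios of -0.93 and -1.03 in Cd4-only and -0.71 and -0.64 in Cd8b1-only barcodes, the last pair with intervals across 0. Tcrg-C1 was found in 14 and 10 Cd4-only and 10 and 9 Cd8b1-only barcodes. Tcrg-C4 was found in 12 and 9 and then 8 and 10. Within Trdc barcodes the ratios lay on the other side, at 0.39 for Tcrg-C1, 0.14 for Tcrg-C2 and 0.36 for Tcrg-C4, all with intervals across 0. The gene past 1.5-fold lower in Trdc barcodes was Cd4, at 34 and 24 UMIs. The Cd4-only and Cd8b1-only gates use Cd4, but the Trdc gate does not. The list's median log2 ratio was 0.07, 0.05 and 0.10 in the 3 classes, beside 0.01, -0.07 and -0.01 for all features.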

How the data were processed

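The authors deposited, per library, a gene by barcode matrix of UMI counts. Reads were processed with Cell Ranger 6.0.1 and mm10, with Seurat 4.3.0 also named, per the submitters' processing notes, whereas the matrix file headers name Cell Ranger 6.1.2. The matrices held 8204 (Vehicle) and 9646 (Glutoborin) barcodes, with 48526451 and 56862506 UMIs. Barcodes with 300 or more genes, 500 or more UMIs and under 10% mitochondrial UMIs were kept, and Scrublet (scanpy, run per library) removed 196 and 352 predicted doublets, leaving 6492 and 8901. The mitochondrial limit removed 18.5% of Vehicle and 4.07% of Glutoborin barcodes. The libraries shared 24 barcode sequences.

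The members and gene lists were chosen with earlier results of these data known. Members were chosen by summed UMIs, so their abundance is a description. Shares have exact Clopper-Pearson 95% intervals and ratios of shares exact conditional intervals. A ratio was called past 1.5-fold only with 10 or more barcodes over the groups compared, with a count of 0 set to 3 for the call. Segments were named by a rule: the 5 leading per chain and class, those past 1.5-fold with intervals off 0, all gamma and delta members, Trav11, Trav1, 4 superantigen-related Trbv segments, and pathway genes past 1.5-fold. Others are said to be chosen afterwards. All 176 segments matched GENCODE M21 by gene ID. A rule of 1.5-fold with the interval off 0 and 10 or more barcodes was run on simulated shares of T barcodes with a UMI. The 1.5-fold rule without the interval, and calls on assigned barcodes, were not simulated. Alternatives were another barcode filter, doublets kept, stricter gates, 2 UMIs for assignment, UMIs in place of barcodes, a floor of 50 UMIs, a fold of 2, summed families and thinning to 2000 UMIs. Intervals were computed with scipy 1.17.1 and doublets with scanpy 1.11.5.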

Additional observations from a re-analysis of the deposited data

How the results depend on the processing

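No paired analysis was possible because each group is 1 library, and for the same reason no library could be left out. Of 339 recomputed values, 299 stayed the same within their limits, 40 moved and 0 reversed. Only a log2 ratio with its main interval off 0 could be labelled reversed, so for most values that label was not possible. A ratio that changed sign within its main interval counted as the same. Of the 299, 47 came from limiting Trdc barcodes to those without Cd4 and Cd8b1. That setting changes only the Trdc gate, so values of the other classes could not move under it. The log2 ratio of the Trav16 family (Cd4-only over Cd8b1-only) was recomputed under 8 alternatives, among them the Trdc setting, which could not alter it. It ranged from -1.43 to -0.89 in the Vehicle library, with the interval off 0 in 5 of the 8. In the Glutoborin library it ranged from -2.35 to -0.56, off 0 in 7. The count of members past 1.5-fold between libraries in T barcodes (17) was 1 where assignment needed 2 UMIs, 3 at a floor of 50 UMIs, 5 at a fold of 2 and 11 with families summed. In Cd4-only barcodes (5) it was 2 with the stricter T cell gate, 0 with class gates at 2 UMIs, 0 where assignment needed 2 UMIs, 11 with UMIs counted and 1 at a fold of 2. In Cd8b1-only barcodes (9) it was 1 where assignment needed 2 UMIs, 23 with UMIs counted, 4 at a floor of 50 UMIs and 4 at a fold of 2. Members past 1.5-fold between Cd4-only and Cd8b1-only barcodes in both libraries (3) numbered 0 where assignment needed 2 UMIs and 7 with UMIs counted. A floor of 50 UMIs left 15 members. Thinned to 2000 UMIs, 8.42% and 7.68% of T barcodes held an alpha or delta UMI and 4.14% and 3.95% a beta UMI. UMIs of 1 barcode are not independent, and fewer barcodes were left at 2 UMIs (118 and 117 with 2 or more alpha or delta UMIs). Most segments rest on under 40 barcodes a library, which limits every ratio.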
